A study of Mus musculus with 12 samples.

Results

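Stefins and cystatins are small proteins that block lysosomal cysteine proteases. Their messenger RNA was followed here in mouse acute myeloid leukaemia during and after chemotherapy. The genes were taken by name from the deposited expression tables, as 8 of 24881 entries: the 5 stefin A copies Stfa1, Stfa2, Stfa2l1, Stfa3 and BC100530, stefin B (Cstb), and the cystatins Cst3 and Cst7. The choice was made with their levels after chemotherapy in view, so the levels in the iCT libraries are given as a description, with no test. All mice carried leukaemia driven by the transgene MLL-AF9, a fusion oncogene, and GFP+ leukaemia cells were sorted from bone marrow before sequencing of total RNA. The iCT group had received induction chemotherapy with doxorubicin, which damages DNA, and cytarabine, a nucleoside analogue, and was taken at day 3 after it ended (n = 3 mice). The relapse group was taken at day 10 after the same chemotherapy (n = 4 mice). The vehicle group had received no drug (n = 5 mice). The labels give no strain, age, sex or drug dose.

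Type 1 cystatins, the stefins, act mainly inside the cell and carry no signal peptide, whereas type 2 cystatins such as cystatin C are made with one and secreted. Both kinds bind the active site cleft of cathepsins of the papain family without being cut. The mouse carries a cluster of stefin A copies on chromosome 16, and several of them are known from mouse neutrophils and bone marrow myeloid cells.

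The copies are hard to tell apart by short reads, which bears on every value below. In GENCODE transcripts, 25.4% of the 50-base windows of Stfa1 and 33.5% of those of BC100530 also occurred in a transcript of another gene, mainly in each other and in BC117090, a further copy. The shares were 15.9% for Stfa2 and 24.6% for Stfa2l1, mainly in each other, and 0% for Stfa3, Cstb, Cst3 and Cst7. Coding sequences of the 5 copies were 80.9% to 97.9% identical over 10 pairs, and 65.2% to 72.8% identical to that of Cstb. The first 90 coding bases, 5′ to 3′ from the start codon, show how close the closest pairs are. Capitals mark bases that differ from Stfa1 in BC100530 (3 bases), and bases that differ from Stfa2 in Stfa2l1 (6 bases) and in Stfa3 (14 bases).
Stfa1: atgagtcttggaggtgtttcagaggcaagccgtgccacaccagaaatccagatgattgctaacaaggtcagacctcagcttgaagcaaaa
BC100530: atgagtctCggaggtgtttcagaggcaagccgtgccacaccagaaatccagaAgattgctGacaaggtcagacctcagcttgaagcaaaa
Stfa2: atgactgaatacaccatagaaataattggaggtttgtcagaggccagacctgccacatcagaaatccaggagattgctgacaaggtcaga
Stfa2l1: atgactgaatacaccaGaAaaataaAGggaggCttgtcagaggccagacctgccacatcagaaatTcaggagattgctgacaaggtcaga
Stfa3: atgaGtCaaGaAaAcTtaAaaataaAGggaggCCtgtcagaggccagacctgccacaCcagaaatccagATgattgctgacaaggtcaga

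The start regions of the copies are alike too. Over the 250 bases before the annotated start in RefSeq (GRCm38.p6), the 10 pairs of copies were 82.9% to 96.1% identical. The 100 bases before each start are shown because these genes moved together in the libraries. Capitals mark the longest run found in all 5 windows, 12 bases long. It occurred in 11 of the 32851 promoters of the table on either strand (0.0335%), the 5 copies among them. The run was picked as shared by copies this alike, so nothing is read from its rarity. The windows are, in this order, chr16:36277048-36277147 (plus strand), chr16:36367571-36367670 (minus strand), chr16:36408364-36408463 (minus strand), chr16:36156711-36156810 (plus strand) and chr16:36455393-36455492 (minus strand).
Stfa1: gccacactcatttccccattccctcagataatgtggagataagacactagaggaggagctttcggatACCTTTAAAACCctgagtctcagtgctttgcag
BC100530: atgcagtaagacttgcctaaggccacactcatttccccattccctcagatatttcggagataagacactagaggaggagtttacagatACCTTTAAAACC
Stfa2: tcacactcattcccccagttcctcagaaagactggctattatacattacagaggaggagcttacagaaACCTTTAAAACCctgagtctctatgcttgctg
Stfa2l1: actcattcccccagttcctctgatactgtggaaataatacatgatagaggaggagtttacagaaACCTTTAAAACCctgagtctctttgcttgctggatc
Stfa3: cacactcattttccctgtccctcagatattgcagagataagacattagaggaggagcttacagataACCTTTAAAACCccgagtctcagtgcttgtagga
Of 6 motifs searched on both strands of the 250 bases, the C/EBP motif TTGCNNAA was found before Stfa1 and BC100530, and the GATA motif AGATAA before Stfa1, Stfa3 and BC100530. All promoters of the table held them in 9.56% and 9.99% of cases. The motifs of PU.1 (GAGGAAGT), AP-1 (TGANTCA), the TATA box (TATAAA) and CRE (TGACGTCA) were found before none of the 5 copies, against 2.44%, 6.75%, 12.4% and 1.55% of all promoters. Only the letters given were searched (N is any base), so close variants, such as TTTAAA in the shared run, were not counted. C/EBP and GATA factors and PU.1 are regulators of blood cell development.

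The libraries differed in depth. FPKM is the number of sequenced fragments of a gene scaled by transcript length and by the depth of the library, and the widths of the deposited FPKM intervals implied 361914 fragments over all genes in iCT mouse 1 and 1225254 to 8359793 in the other 11 libraries. In iCT mouse 1 the estimates of Stfa2 and Cst7 rested on about 32 and 7 fragments, so values that involve it carry wide counting error, and results are also given without it. Of the genes known from MLL-AF9 leukaemia and myeloid progenitors, Mpo, Elane, Hoxa9 and Meis1 were present in all 12 libraries, while Mecom was listed at 0 in all iCT and vehicle libraries and Mef2c stayed under 1 FPKM throughout. Of 16 tested genes of that list, limma called 2 higher and 3 lower in iCT against vehicle. Kit, a progenitor receptor, averaged 6.84 FPKM in iCT mice and 25.8 FPKM in vehicle mice, and Cd34, a progenitor surface antigen, 26.9 FPKM in iCT mice and 89.7 FPKM in vehicle mice, both lower in iCT. Ms4a3, a gene of granulocyte and monocyte progenitors, averaged 473 FPKM in iCT mice and 111 FPKM in vehicle mice and was higher. In sorted bulk cells, a lower level can come from fewer cells of a type or from less RNA per cell, and these cannot be told apart.

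**Figure D1:**
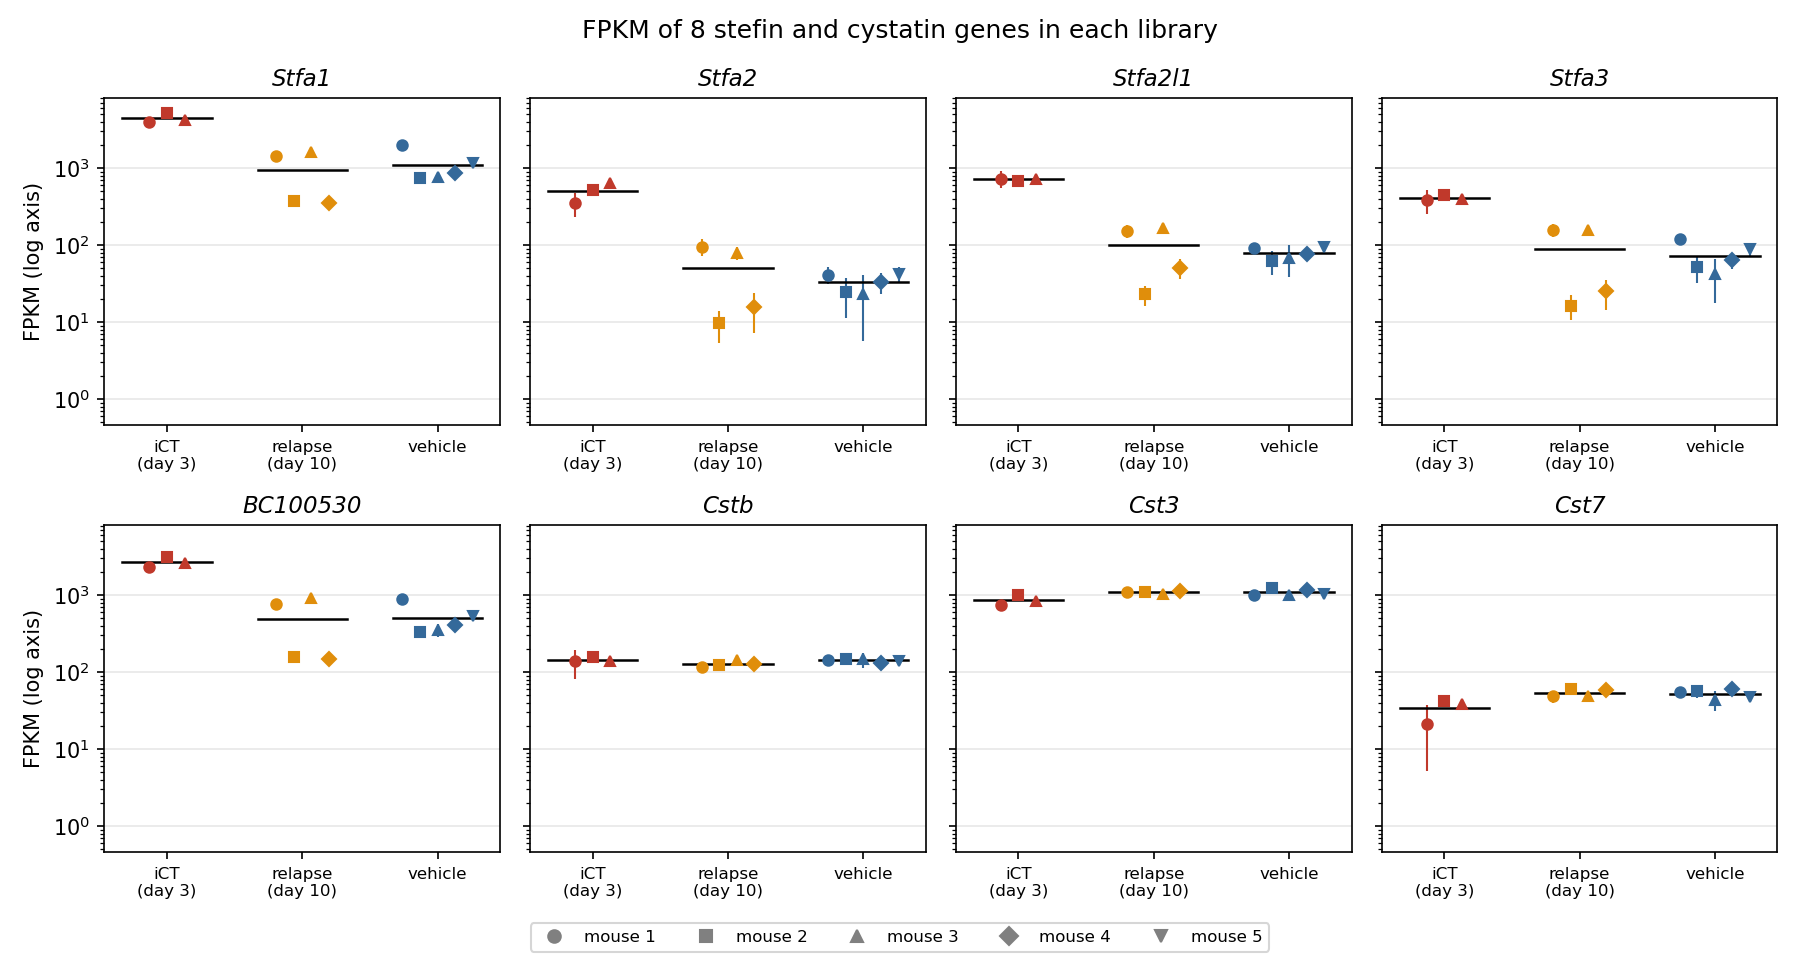
FPKM (log axis) of the 8 genes in each library, by group (iCT at day 3, relapse at day 10, vehicle); points are mice, vertical lines the deposited FPKM intervals and black bars group means. All 5 stefin A copies sit higher in the 3 iCT mice than in any other mouse, and the 4 relapse mice split into a higher pair (mice 1 and 3) and a lower pair (mice 2 and 4), while Cstb and Cst3 stay within a narrow band.

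The stefin A copies were the members that stood apart after chemotherapy. Their summed level averaged 8737 ± 1124 FPKM in iCT mice (SD, n = 3), 1684 ± 1276 FPKM in relapse mice (SD, n = 4) and 1794 ± 803 FPKM in vehicle mice (SD, n = 5). Mouse by mouse, the sum was 7697, 9930 and 8585 FPKM in iCT mice 1 to 3. It was 2609, 582, 2957 and 588 FPKM in relapse mice 1 to 4, and 3139, 1205, 1259, 1448 and 1920.0 FPKM in vehicle mice 1 to 5. Every iCT mouse lay above every other mouse, and relapse and vehicle mice overlapped, with relapse mice 2 and 4 below all vehicle mice. The 5 copies together held 0.963% to 1.11% of all FPKM in iCT libraries, 0.0697% to 0.370% in relapse libraries and 0.137% to 0.374% in vehicle libraries.

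Stfa1 (chr16:36277148-36285371) was the most abundant copy in every group. It reached 3940, 5105 and 4264 FPKM in iCT mice 1 to 3, against 1990, 735, 771, 867 and 1155 FPKM in vehicle mice 1 to 5. The relapse mice had 1443, 376, 1636 and 348 FPKM. By group mean it ranked 25 among the 11019 tested genes in iCT mice, 141 in relapse mice and 131 in vehicle mice. The iCT mice lay above all vehicle mice, of which mouse 1 was the highest, and the log2 change was 2.10 (SE 0.50) for iCT against vehicle. Log2 changes here and below are differences of mean log2(FPKM + 1), a scale that understates changes of low genes.

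BC100530 (chr16:36359382-36367570), whose locus RefSeq names Cstdc5, followed Stfa1 closely. Its levels were 2283, 3167 and 2573 FPKM in iCT mice, 759, 157, 916 and 149 FPKM in relapse mice, and 896, 332, 354, 407 and 541 FPKM in vehicle mice. Again the iCT mice did not overlap the others, and the log2 change for iCT against vehicle was 2.49 (SE 0.57). Because its transcript shares 33.5% of its windows with other genes, mainly Stfa1 and BC117090, the split of reads among these copies is uncertain.

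Stfa2 (chr16:36403946-36408363) differed most between the groups. It stood at 354, 519 and 637 FPKM in iCT mice and at 41.2, 24.4, 23.1, 33.3 and 42.4 FPKM in vehicle mice. The relapse mice had 95.2, 9.70, 79.4 and 15.6 FPKM, so that mice 1 and 3 exceeded all vehicle mice and mice 2 and 4 fell below all of them. On the low side the deposited intervals overlapped, with 7.28 to 24.0 FPKM for relapse mouse 4 and 5.64 to 40.6 FPKM for vehicle mouse 3. The log2 change for iCT against vehicle was 3.90 (SE 0.61), with means 15.3-fold apart, and its rank by group mean was 221 in iCT mice and 2735 in vehicle mice.

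Stfa2l1 (chr16:36156811-36161948), the copy closest to Stfa2, was the most even among the iCT mice. It had 731, 686 and 716 FPKM there, 154, 22.9, 168 and 51.1 FPKM in relapse mice, and 91.1, 62.3, 68.9, 77.4 and 93.8 FPKM in vehicle mice. Its log2 change for iCT against vehicle was 3.18 (SE 0.50). Stfa3 (chr16:36450537-36455392), the copy with no shared window, had 389, 453 and 395 FPKM in iCT mice, 157, 16.4, 157 and 25.0 FPKM in relapse mice, and 121, 51.3, 41.7, 63.2 and 88.1 FPKM in vehicle mice. The iCT mice were above all others for both copies, and the log2 change of Stfa3 was 2.58 (SE 0.66). The distance between iCT and vehicle was thus also seen in a copy whose reads are not shared at 50 bases.

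Leaving out iCT mouse 1 moved the iCT against vehicle log2 changes of the copies little. They were then 2.19 for Stfa1, 4.13 for Stfa2, 3.16 for Stfa2l1, 2.62 for Stfa3 and 2.60 for BC100530, and 2.46 in place of 2.37 for the sum.

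For context, limma called 9.62% of the 11019 tested genes between iCT and vehicle at an adjusted p under 0.05, 3.31% higher and 6.31% lower in iCT. All iCT libraries lay above all vehicle libraries for 5.49% of tested genes and below them for 10.6%. All 8 members were tested. The 5 stefin A copies lay above in this sense and Cst7 below, and since the members were chosen on this contrast, nothing is read from these counts.

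At day 10 the relapse mice spread to both sides of the vehicle mice. For Stfa2, Stfa2l1 and Stfa3, the estimates of mice 1 and 3 lay above those of all vehicle mice and the estimates of mice 2 and 4 below them. The low side rested on few fragments, about 14 for Stfa2 in relapse mouse 4 and 7 in vehicle mouse 3. For all of these copies the interval of relapse mouse 4 overlapped that of the lowest vehicle mouse. The interval of relapse mouse 2 did so for Stfa2 and Stfa3, but not for Stfa2l1. In these cases a place below the vehicle mice is not resolved. On the high side, the intervals of relapse mice 1 and 3 overlapped that of vehicle mouse 1 for Stfa3. Their place above the vehicle mice is therefore not resolved for that copy. For Stfa2 and Stfa2l1 their intervals lay above those of all vehicle mice. None of the 8 members passed limma's test for relapse against vehicle, in which 0% of the 11019 tested genes were called. The lowest adjusted p over all genes was 0.173, and 14.6% of genes had an unadjusted p under 0.05. The log2 changes were -0.46 (SE 0.46) for Stfa1 (adjusted p = 0.703), 0.06 (SE 0.56) for Stfa2 (adjusted p = 0.981), and -0.06 (SE 0.46) for Stfa2l1 (adjusted p = 0.977). Stfa3 had -0.25 (SE 0.60, adjusted p = 0.896) and BC100530 had -0.40 (SE 0.52, adjusted p = 0.787). Relapse and vehicle mice overlapped for all 8 members, whereas 9.72% of tested genes were higher in every relapse mouse than in every vehicle mouse and 4.03% lower.

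The summed stefin A level differed by -0.39 on the log2 scale for relapse against vehicle (exact two-sided permutation test, p = 0.492, n = 4 and 5). The smallest p this design allows is 0.0159. This rests on a wide spread among relapse mice. Without relapse mouse 1 the difference was -0.74, and without relapse mouse 3 it was -0.80, while it was -0.02 without relapse mouse 2 and likewise without relapse mouse 4. A difference in either direction is therefore not shown at this number of mice, and neither is sameness. The relapse mice that were high and low were the same for all 5 copies.

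The relapse against iCT comparison uses the libraries on which the genes were chosen, so it is also a description. The log2 changes were -2.56 (SE 0.52) for Stfa1, -3.84 (SE 0.64) for Stfa2, -3.24 (SE 0.52) for Stfa2l1, -2.83 (SE 0.69) for Stfa3 and -2.89 (SE 0.59) for BC100530. No relapse mouse reached the lowest iCT mouse for any copy. Among all tested genes, limma called 9.72% in this comparison, 6.62% higher and 3.10% lower in relapse. It shares the iCT mice with the comparison above and the relapse mice with the one before.

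**Figure D2:**
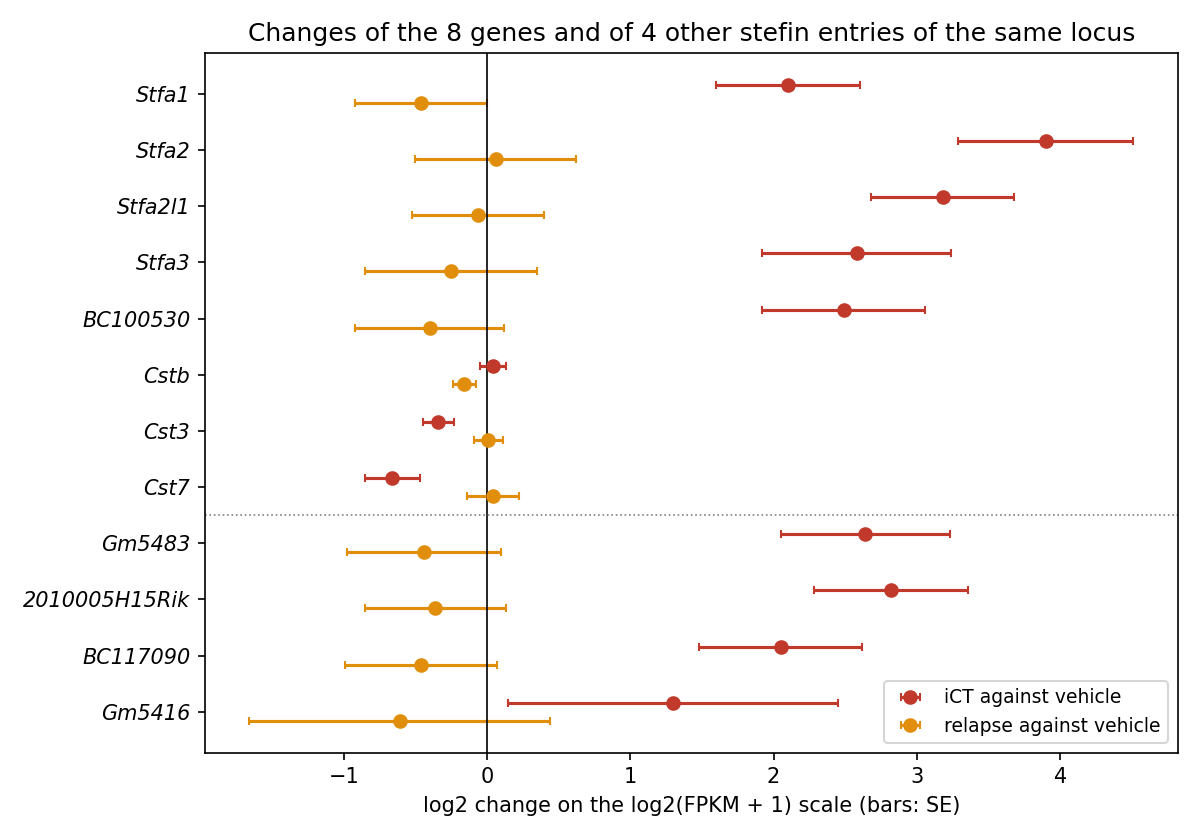
Log2 change with its SE for the 8 members (above the dotted line) and 4 other stefin entries of the same locus (below it), for iCT against vehicle and relapse against vehicle. The 5 stefin A copies lie between 2.10 and 3.90 for iCT against vehicle and between -0.46 and 0.06 for relapse against vehicle, and Cstb, Cst3 and Cst7 lie near or below 0 in both.

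The make-up of the stefin A sum also differed between iCT and vehicle mice, while relapse and vehicle mice overlapped for every copy. The shares are a description and depend on how reads were split among the copies. Stfa2 supplied 5.75 ± 1.48% of it in iCT mice (SD, n = 3), 2.66 ± 0.81% in relapse mice (SD, n = 4) and 1.94 ± 0.39% in vehicle mice (SD, n = 5). Its share was 4.59% to 7.42% in the iCT mice and 1.31% to 2.30% in the vehicle mice, with no overlap. Stfa2l1 supplied 8.25% in iCT mice, 6.05% in relapse mice and 4.75% in vehicle mice on average. Stfa1 had the opposite order, with 50.8% in iCT mice, 58.6% in relapse mice and 61.1% in vehicle mice. BC100530 supplied 30.5% in iCT mice, 28.1% in relapse mice and 28.1% in vehicle mice. Its range of 29.7% to 31.9% in iCT mice did not overlap that of 27.6% to 28.5% in vehicle mice. Stfa3 supplied 4.74%, 4.6% and 4.08% in iCT, relapse and vehicle mice, and the iCT and vehicle mice overlapped.

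**Figure D3:**
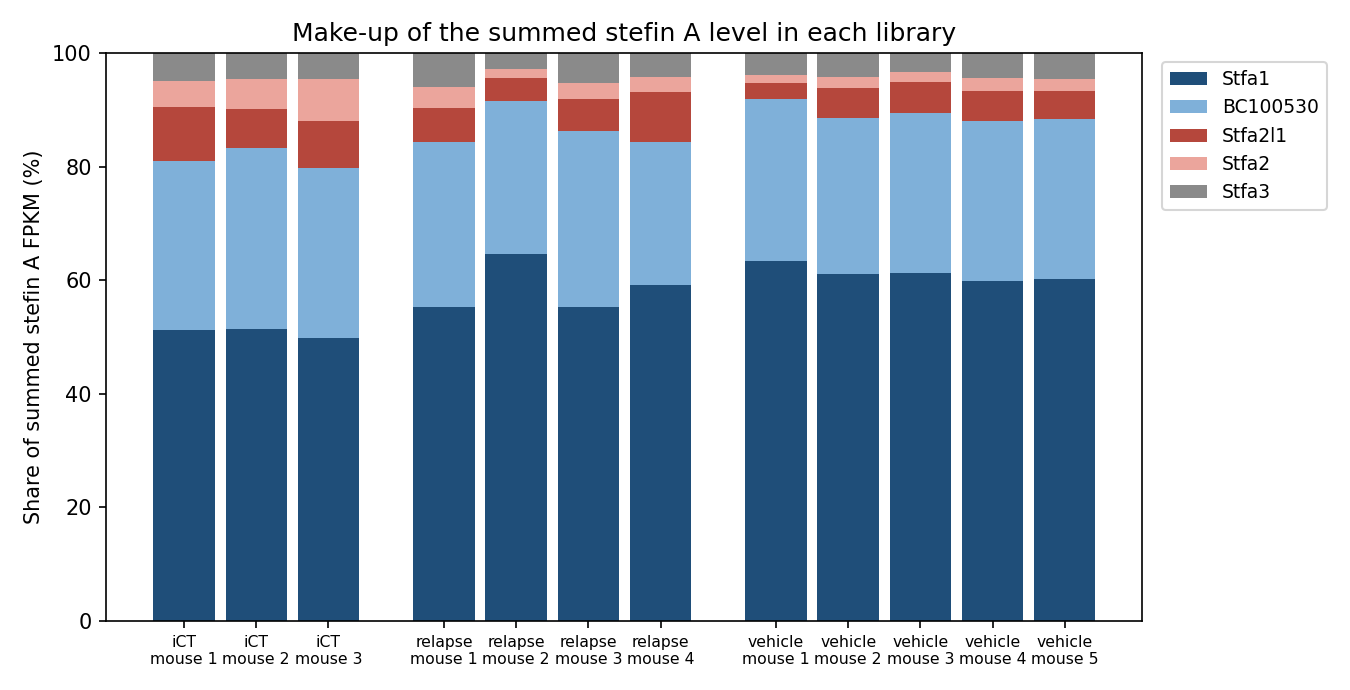
Share (%) of the summed stefin A FPKM held by each of the 5 copies in each library, grouped as iCT, relapse and vehicle. Stfa1 and BC100530 hold most of the sum everywhere, and the combined part of Stfa2 and Stfa2l1 is larger in the iCT mice.

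Sums over the closest copies depend less on how reads were divided among them. Some sharing remains outside the sums, as Stfa2 shares windows with Gm4758 and Gm49652, Stfa2l1 with Gm49652, and BC100530 with Csta1. The sets were chosen after seeing the data and after the shared windows were counted. Coding sequences within a set were at least 96.4% identical. Stfa1, BC100530 and BC117090 together averaged 7730 ± 1316 FPKM in iCT mice and 1765 ± 844 FPKM in vehicle mice (SD, n = 3 and 5), a ratio of means of 4.38. Stfa2 and Stfa2l1 together averaged 1214 ± 134 FPKM in iCT mice and 112 ± 22.6 FPKM in vehicle mice, a ratio of 10.9. Stfa3 alone had a ratio of 5.64. Gm5483 and 2010005H15Rik, further copies that are not members, were also summed and had a ratio of 6.23. The ratio of the Stfa2 set was the highest of these, and no test of the difference between sets was made.

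The other entries of the locus were not members and were tested, though they share sequence and position with the members. Gm5483, 2010005H15Rik and BC117090 varied closely with the stefin A sum (correlations of 0.996, 0.990 and 0.980 over the 12 libraries). As the members were chosen on iCT against vehicle, the p-values of these entries in that comparison are not independent of the choice and lend the members no support. Between the outermost stefin A copies the tables list Gm5483, 2010005H15Rik, BC117090, Gm5416 and Gm6815. Gm5483 had 1037, 1680 and 1293 FPKM in iCT mice, 359, 56.0, 406 and 68.3 FPKM in relapse mice, and 345, 166, 151, 187 and 247 FPKM in vehicle mice, so it rose in iCT against vehicle by 2.64 on the log2 scale (limma, adjusted p = 0.0179). In relapse it showed the same pair of higher and pair of lower mice. 2010005H15Rik rose by 2.82 (adjusted p = 0.00848), with 236 to 362 FPKM in iCT mice and 25.8 to 67.9 FPKM in vehicle mice. With library weights, which gave iCT mouse 1 the lowest weight, both calls were lost (adjusted p = 0.101 for Gm5483 and 0.0640 for 2010005H15Rik). No 50-base window of a member was found in these 2 genes.

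BC117090, which shares windows with Stfa1 and BC100530, had 357 to 894 FPKM in iCT mice and 94.6 to 306 FPKM in vehicle mice, a log2 change of 2.05 (limma, adjusted p = 0.0425). That call was lost in 9 of 21 alternative settings, without iCT mouse 2 and without iCT mouse 3 among them, with adjusted p from 0.0315 to 0.145. Gm5416, which RefSeq names Csta3, was listed at 0 in iCT mouse 1 and had 57.6 and 39.8 FPKM in iCT mice 2 and 3, against 1.45 to 7.57 FPKM in vehicle mice, and it did not pass the test (log2 change 1.30, adjusted p = 0.458). Gm6815, a pseudogene in RefSeq, did not pass either (log2 change 0.31, adjusted p = 0.533). Csta1 stayed under 1 FPKM in all libraries and was not tested.

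Stefin B, encoded by Cstb (chr10:78425670-78427622), is the broadly expressed intracellular inhibitor of cathepsins. It was the most even member, with 138, 158 and 141 FPKM in iCT mice, 115, 123, 142 and 129 FPKM in relapse mice, and 145, 149, 146, 130 and 138 FPKM in vehicle mice. The groups overlapped throughout. Its log2 changes were 0.04 (SE 0.09) for iCT against vehicle and -0.16 (SE 0.08) for relapse against vehicle (limma, adjusted p = 0.421). It was -0.20 (SE 0.09) for relapse against iCT. Over all 12 libraries it ranged from 115 to 158 FPKM, against 348 to 5105 FPKM for Stfa1.

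Cystatin C, encoded by Cst3 (chr2:148871732-148875468), is the main secreted cystatin of most tissues. In vehicle mice its level was about that of Stfa1, and both were above the other members. It had 748, 1018 and 827 FPKM in iCT mice, 1109, 1102, 1032 and 1123 FPKM in relapse mice, and 992, 1245, 1014, 1153 and 1049 FPKM in vehicle mice. iCT mice 1 and 3 lay below every vehicle mouse and iCT mouse 2 was among the vehicle mice. The log2 change was -0.34 (SE 0.11) for iCT against vehicle and 0.35 (SE 0.11) for relapse against iCT, and 0.01 (SE 0.10) for relapse against vehicle (limma, adjusted p = 0.989).

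Cst7 (chr2:150570415-150578944) encodes cystatin F, an inhibitor that reaches lysosomes and acts on cathepsin C, the activator of granule serine proteases. It had 21.5, 42.1 and 39.0 FPKM in iCT mice, 48.7, 60.5, 48.9 and 59.5 FPKM in relapse mice, and 54.6, 57.1, 43.8, 60.7 and 47.8 FPKM in vehicle mice. All iCT mice were below all vehicle mice, although iCT mouse 2 was close to the lowest of them. The log2 change for iCT against vehicle was -0.66 (SE 0.19), but -0.36 without iCT mouse 1, the shallow library. For relapse against iCT it was 0.70 (SE 0.20), or 0.41 without that mouse. Relapse against vehicle gave 0.04 (SE 0.18; limma, adjusted p = 0.948). The relapse mice that were lower in Cst7, mice 1 and 3, were those higher in the stefin A copies.

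The proteases that these inhibitors bind changed in both directions. Of 19 cysteine cathepsins and legumain listed, 9 passed the filter on low values, and limma called 3 higher and 1 lower in iCT against vehicle, where 9.62% of all tested genes were called. The median log2 change was 0.04 over the 9 genes and -0.08 over all tested genes. Ctsk, the collagen-cutting cathepsin of osteoclasts, had 277, 75.0 and 61.1 FPKM in iCT mice and at most 2.47 FPKM in vehicle mice. It rose by 6.06 on the log2 scale (SE 0.96, adjusted p = 0.00341), and by 5.39 without iCT mouse 1 (adjusted p = 0.0122). Lgmn, the lysosomal asparaginyl protease legumain, had 10.1, 10.0 and 27.8 FPKM in iCT mice and 1.31 to 2.82 FPKM in vehicle mice, and rose by 2.35 (SE 0.36, adjusted p = 0.00258).

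Ctsl, a lysosomal endopeptidase that stefins inhibit tightly, had 21.7, 7.40 and 11.4 FPKM in iCT mice and 2.06 to 6.54 FPKM in vehicle mice, a log2 change of 1.27 (SE 0.36; limma, adjusted p = 0.0450). This call was lost in 14 of 21 alternative settings, and without iCT mouse 1 the change was 0.88 (adjusted p = 0.156). Ctsh, an aminopeptidase, fell by 1.60 on the log2 scale, with 11.8, 19.4 and 24.2 FPKM in iCT mice and 45.5 to 73.5 FPKM in vehicle mice (SE 0.26, adjusted p = 0.00402). Ctsb, the most studied target of stefins A and B, had a log2 change of -0.37 (adjusted p = 0.0595), Ctss of 0.04 (adjusted p = 0.949) and Ctsc, the target of cystatin F, of -0.15 (adjusted p = 0.713). None of the 9 passed for relapse against vehicle (limma, median log2 change -0.19), and 2 were called lower in relapse against iCT, Ctsk (log2 change -4.85, adjusted p = 0.0133) and Lgmn (log2 change -2.73, adjusted p = 0.00183). The Ctsk call for relapse against iCT was lost with library weights (adjusted p = 0.0533) and with the groups compared alone (adjusted p = 0.0677).

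**Figure D4:**
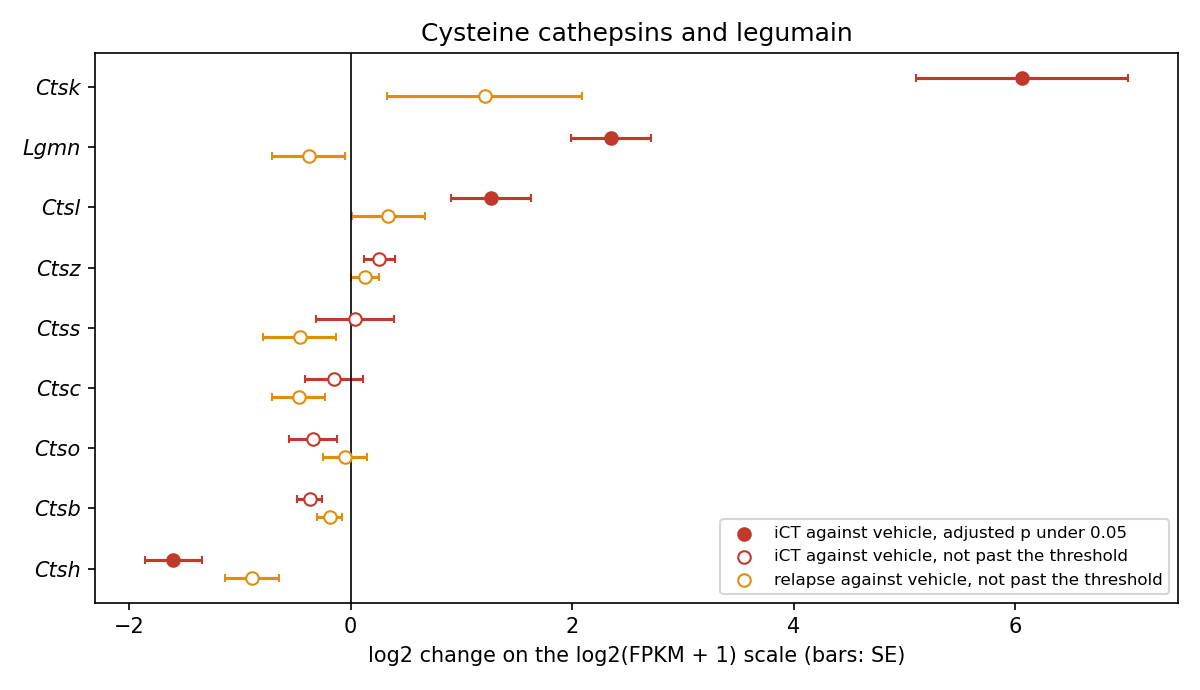
Log2 change with its SE of the 9 tested cysteine cathepsins and legumain, for iCT against vehicle and relapse against vehicle; filled points passed limma's adjusted threshold of 0.05. Ctsk, Lgmn and Ctsl are higher and Ctsh is lower in iCT, and no gene passed for relapse against vehicle.

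Of the granule serine proteases that cathepsin C activates, 6 were tested and none was called for iCT against vehicle (limma). Elane, neutrophil elastase, had a log2 change of -0.36 (adjusted p = 0.163) and Prtn3, proteinase 3, of 0.16 (adjusted p = 0.333). Of 19 further genes of the cystatin superfamily in the tables, 4 were tested and none was called in any of the 3 comparisons. These include Ngp and Camp, neutrophil granule proteins with a cystatin fold, which averaged 932 and 674 FPKM in iCT mice and 685 and 716 FPKM in vehicle mice.

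Inhibitors of other protease classes were mixed. Of 16 tested, 3 were called higher and 1 lower in iCT against vehicle, with a median log2 change of 0.20. Slpi, the secreted inhibitor of neutrophil elastase and cathepsin G, had 121, 193 and 218 FPKM in iCT mice and 449 to 681 FPKM in vehicle mice, and fell by 1.60 on the log2 scale (limma, adjusted p = 0.000482). Wfdc17 rose by 1.45 (adjusted p = 0.00262), with 177 to 266 FPKM in iCT mice and 51.1 to 109 FPKM in vehicle mice. Serpinb1a, an intracellular serpin that blocks neutrophil serine proteases, rose by 0.47 (adjusted p = 0.0281), and Serpinb6a by 0.89 (adjusted p = 0.0427). The Serpinb1a and Serpinb6a calls were lost in 6 and 14 of 21 alternative settings, and that of Serpinb6a also without iCT mouse 1 (log2 change 0.54, adjusted p = 0.120).

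Markers of other cell types moved beside the stefin A levels, and their part in the result was not tested. The lists share some genes, so their counts are not separate. Hdc is in the neutrophil and the mast cell lists, and Mmp9 in the neutrophil and the osteoclast lists. Of 24 tested mature neutrophil markers, 6 were called higher in iCT against vehicle and 2 lower; Stfa2l1, itself a neutrophil marker, was left out of the list. The smallest p belonged to Hdc, histidine decarboxylase, which fell (log2 change -1.50, limma adjusted p = 0.000170), and to Anxa1 (0.66, adjusted p = 0.00455) and Chil3 (1.53, adjusted p = 0.00478), which rose. The call of Anxa1 was lost under the replicate block (adjusted p = 0.0595). The counts moved to 4 higher and 4 lower without iCT mouse 3, 4 and 2 without iCT mouse 1, 9 and 2 without vehicle mouse 4, and 3 and 1 with library weights or the replicate block. The summed level was 17180 to 21190 FPKM in iCT mice, 8057 to 17491 FPKM in relapse mice and 5293 to 16805 FPKM in vehicle mice. S100a8 and S100a9 made up most of it in every mouse, with 8877 and 6538 FPKM in iCT mouse 1. Sums of a list, here and below, thus follow its most abundant genes and not the list as a whole. Cxcl2 was listed at 0 in every relapse and vehicle mouse, and had 0, 0.546 and 0.289 FPKM in iCT mice 1 to 3. The orders of the mice were not the same in all groups. Among vehicle mice, mouse 1 had the highest stefin A sum and the lowest neutrophil marker sum, while in relapse mice 1 and 3 were high in both. Retnlg, a late neutrophil gene, had 5.92, 17.5 and 46.1 FPKM in iCT mice and 16.6 to 190 FPKM in vehicle mice. It is 1 gene and does not stand for the list, which had the 6 higher and 2 lower calls above. Mmp9 of the same list had 328, 93.8 and 193 FPKM in iCT mice and 10.9 to 49.0 FPKM in vehicle mice. Lcn2 had 1363, 937 and 1278 FPKM in iCT mice and 183 to 657 FPKM in vehicle mice.

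Tissue macrophage markers were called higher for 10 of 16, with the complement gene C1qa (log2 change 2.82) among them, and lower for 1, Adgre1 (log2 change -1.87). They had sums of 311 to 483 FPKM in iCT mice, 180 to 246 FPKM in relapse mice and 258 to 273 FPKM in vehicle mice. The limma calls of Axl, Cd5l and Fcna were lost under the replicate block (adjusted p = 0.0802, 0.101 and 0.123). All of these were also lost with the groups compared alone, and Trem2 was lost with library weights (limma, adjusted p = 0.0781). Mrc1, also called, was under 1 FPKM in every relapse and vehicle mouse and passed the filter only through the iCT mice. In vehicle mouse 1, Adgre1 and Vcam1 (85.1 and 94.0 FPKM) weighed far more in the sum than C1qa (1.91 FPKM). Marco was listed at 0 in every relapse and vehicle mouse, as was Timd4 in every relapse mouse. Both were also at 0 in iCT mouse 1, with 0.81 and 2.85 FPKM for Marco and 0.0488 and 0.58 FPKM for Timd4 in iCT mice 2 and 3. Osteoclast markers were called higher for 6 of 10, with Acp5 (log2 change 3.18) and Ctsk among them, and had sums of 276 to 1032 FPKM in iCT mice, 75.5 to 193 FPKM in relapse mice and 39.1 to 102 FPKM in vehicle mice. Of those called, Ocstamp, Dcstamp and Atp6v0d2 were under 1 FPKM in every relapse and vehicle mouse. They passed the filter on low values only through the iCT mice and were not tested when any iCT mouse was left out. The osteoclast count is therefore a description, and nothing is read from it. Dcstamp, Calcr and Oscar were listed at 0 in every vehicle mouse. Calcr and Oscar were also at 0 in iCT mouse 1, and Calcr stayed under 1 FPKM in all mice. Monocyte markers were called lower for 7 of 15 and higher for 0, led by Ly6c2 (log2 change -2.08), and had sums of 957 to 1033 FPKM in iCT mice, 1473 to 3031 FPKM in relapse mice and 3118 to 3474 FPKM in vehicle mice. Ly6c2 and Ly6c1 made up most of the monocyte sum in every mouse, with 2190 and 585 FPKM of 3230 FPKM in vehicle mouse 1. No marker of the monocyte list was at 0 throughout a group. Relapse mice 1 and 3, higher in stefin A, had the lower monocyte sums.

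Erythroid markers were called lower for 4 of 9 in iCT against vehicle and higher for 0. Their sums were 8.0 to 13.5 FPKM in iCT mice, 60.2 to 203 FPKM in relapse mice and 16.8 to 494 FPKM in vehicle mice, and Slc4a1, Car1 and Rhag were listed at 0 in every iCT mouse. Vehicle mouse 1, highest in stefin A among vehicle mice, had the lowest erythroid sum of that group. Mast cell, basophil and eosinophil markers were called lower for 2 of 8, with sums of 68.5 to 73.8 FPKM in iCT mice, 110 to 152 FPKM in relapse mice and 124 to 162 FPKM in vehicle mice. Megakaryocyte markers were called higher for 1 of 3, Pf4, B and plasma cell markers lower for 1 of 4, Cd79b, and stromal and endothelial markers higher for 1 and lower for 1 of 7. No T and natural killer cell or dendritic cell marker was called for iCT against vehicle (limma) among 4 and 6 tested, with sums of 17.2 to 41.9 and 148 to 274 FPKM in iCT mice and 23.2 to 38.0 and 99.5 to 296 FPKM in vehicle mice.

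**Figure D5:**
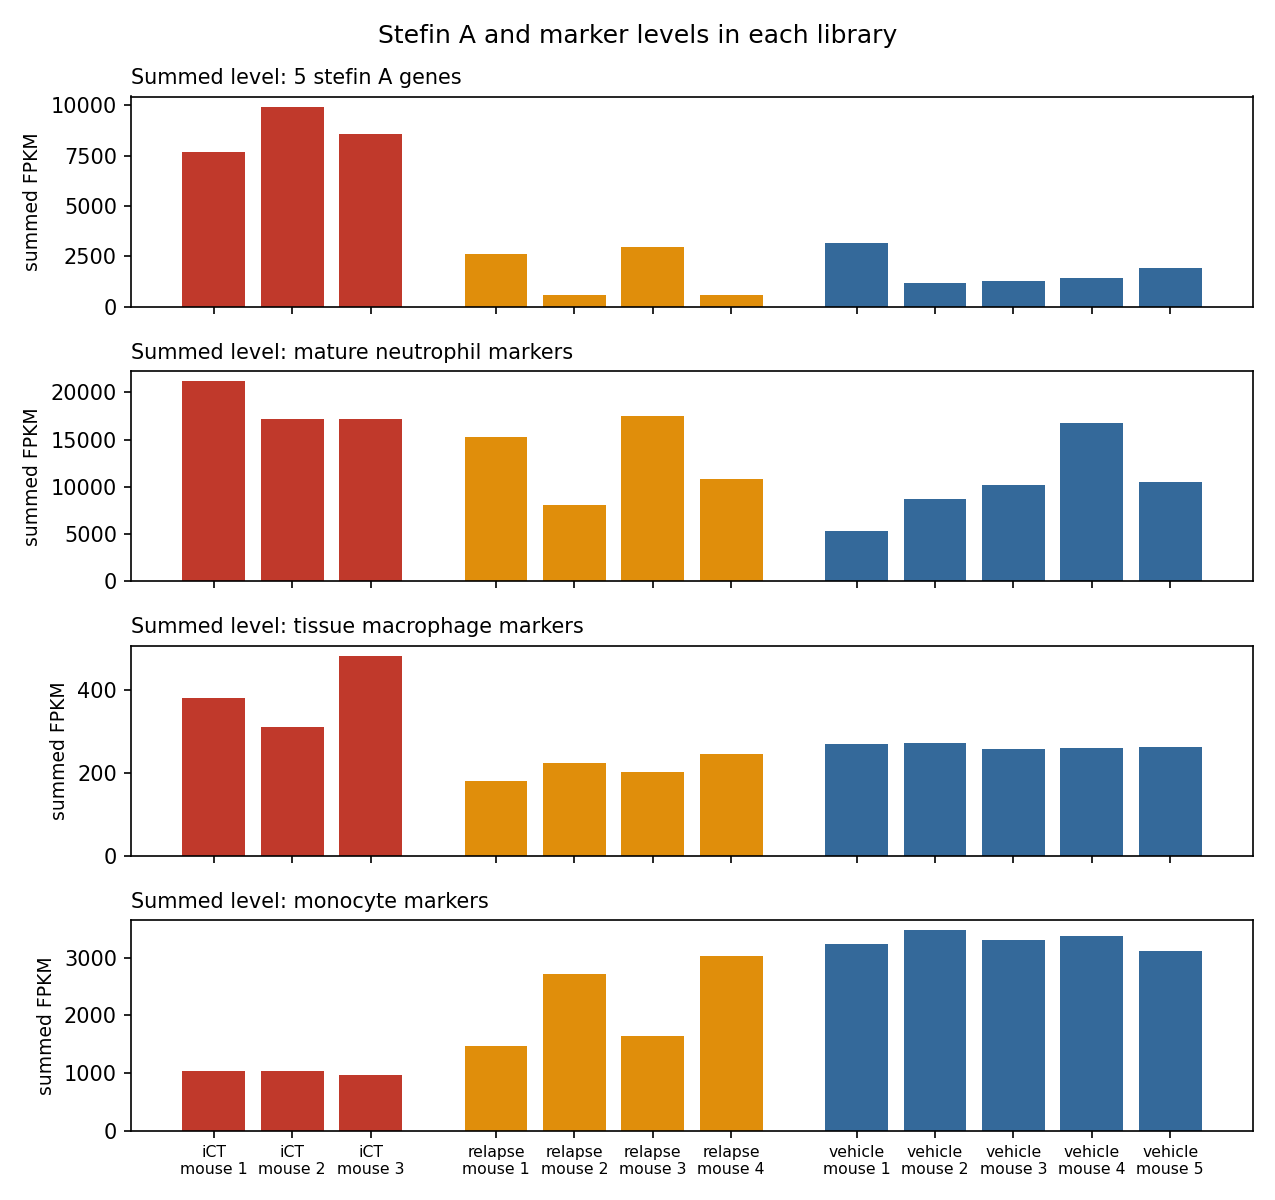
Summed FPKM in each library of the 5 stefin A genes and of the mature neutrophil, tissue macrophage and monocyte marker lists (bars from 0), grouped as iCT, relapse and vehicle. The stefin A sum is highest in the 3 iCT mice, where the monocyte sum is lowest, and vehicle mouse 1 combines the highest vehicle stefin A sum with the lowest neutrophil sum. The marker sums follow their most abundant genes, such as S100a8 and S100a9 for neutrophils and Ly6c2 for monocytes.

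The stefin A copies varied closely together. Over the 12 libraries, Pearson correlations of log2(FPKM + 1) between the 10 pairs of copies ran from 0.945 to 0.998, given as a description because copies share reads and all genes share libraries. The tested genes outside the members with the highest correlation to the stefin A sum were Gm5483 (0.996), 2010005H15Rik (0.990) and BC117090 (0.980), all of the same locus, and then Chchd4 (0.930) and Mrpl49 (0.903). The last pair varied far less in size: Chchd4, a mitochondrial import factor, averaged 73.8 FPKM in iCT mice, 55.2 FPKM in relapse mice and 54.5 FPKM in vehicle mice. The genes most like Cstb were Gyg (0.861), Impa1 (0.852), Mrpl32 (0.844), Cxcl12 (0.768) and Slirp (0.760). For Cst3 they were Cdk4 (0.964), Tcta (0.945), Dbi (0.941), Pih1d1 (0.939) and Zfp764 (0.936), and for Cst7 they were Ccdc85b (0.963), Map2k6 (0.958), Brox (0.958), H2-DMb1 (0.957) and Gtf2h4 (0.955).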

How the data were processed

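Total RNA of GFP+ cells from 12 mice was sequenced, and 1 expression table per library was deposited. The authors deposited FPKM per gene with an interval, per the file headers, which are those of Cufflinks; per the submitters' processing notes STAR and Cufflinks were used and the build was mm9, but the loci in the tables equal those of GRCm38 in RefSeq. Cufflinks corrects for length and depth and divides reads among copies, so FPKM of near-identical copies depend on that division. For tool versions, read length, strand and multi-read settings: not given in the sources used here.

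From these values log2(FPKM + 1) was tested with limma 3.58.1 in R 4.3.3 (trend, 1 fit of 12 libraries) for genes of at least 1 FPKM in at least 3 libraries, with Benjamini-Hochberg adjusted p over 11019 genes and a threshold of 0.05. The fit was tested on simulated data. The stefin A sum was tested with an exact permutation test. Mice are separate animals per the labels' titles; their numbers do not pair the groups (correlations of deviations from -0.091 to 0.099). Depth was inferred from the deposited intervals, so counting error is approximate.

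Members and gene lists were chosen with earlier results of these data known. Named were all members, up to 3 called genes per list with the smallest p, Ctsb, Ctsc, Ctsl, Ctss and Lgmn, the entries between the stefin A copies, and the 5 genes most alike. Beyond that rule, Prtn3, Ngp, Camp, Csta1, Serpinb1a and Serpinb6a were named after their values were seen. So were single markers (Mpo, Elane, Hoxa9, Meis1, Mecom, Mef2c, Retnlg, Mmp9, Lcn2 and those given as limits or listed at 0). Of the members, 7 of 8 had an entry in the promoter table; Cstb had none. Alternatives were other pseudocounts, filters and scalings, library weights, the replicate block, groups compared alone and each library left out.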

Additional observations from a re-analysis of the deposited data

Results flagged for a closer look

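Ctsk stood apart in 1 relapse mouse. It had 33.1 FPKM in relapse mouse 1, against 0.152, 0.239 and 3.27 FPKM in relapse mice 2 to 4, and the gap to the next mouse was 0.905 of the range of the group. This was the 1 case among 58 sets of 4 or 5 mice compared in this way, of which chance alone gives about 1 in 20. The osteoclast marker sum was also highest among relapse mice in that mouse (193 FPKM).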

How the results depend on the processing

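The direction of the iCT against vehicle change of every stefin A copy and of Cst3 and Cst7 was kept in all 21 alternatives for each gene, with 1.93 to 2.34 for Stfa1, 3.71 to 4.13 for Stfa2, 3.10 to 3.24 for Stfa2l1, 2.41 to 2.79 for Stfa3, 2.30 to 2.72 for BC100530, -0.47 to -0.24 for Cst3 and -0.83 to -0.36 for Cst7 on the log2 scale. Cstb ranged from -0.02 to 0.09, and its relapse against iCT change was -0.31 under median-of-ratios scaling. No member passed for relapse against vehicle in any of the 21 alternatives, and 3 or 4 cathepsins were called for iCT against vehicle. The summed stefin A difference for relapse against vehicle was -0.80 to -0.02 with a mouse left out (exact permutation test, lowest p = 0.25) and -0.40 over all 9 stefin entries, an alternative added after seeing the data.

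Counts over all genes depended more on the settings. For iCT against vehicle 1060 genes were called, against 457 with library weights, 341 with the groups compared alone, 197 with the replicate block, and 569 to 2722 with a mouse left out (686 without iCT mouse 1, 2722 without iCT mouse 2). For relapse against vehicle, 0 genes were called, against 1 with no filter, 971 with library weights, 595 with the groups compared alone and 0 to 5 with a mouse left out. For relapse against iCT, 1071 became 603, 236 and 372 with library weights, groups alone and the replicate block, and 529 to 1855 with a mouse left out. The cause was not tested. Under median-of-ratios scaling 496 of the 1111 iCT calls were higher, against 365 of 1060, and 490 of the 1004 relapse against iCT calls, against 729 of 1071. Quantile normalization gave 526 of 1096 and 431 of 851. The replicate block also ended the calls of Gm5483 (adjusted p = 0.0849), BC117090 (adjusted p = 0.145), Anxa1 (adjusted p = 0.0595), Ctsl (adjusted p = 0.149), Serpinb1a (adjusted p = 0.129) and Serpinb6a (adjusted p = 0.123), although the numbers only name the mice. Depth limits iCT mouse 1 most.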

Other observations

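The relapse mice that were higher in stefin A also stood together in other myeloid genes. Mpo, the myeloperoxidase of primary granules, had 1973 and 1807 FPKM in relapse mice 1 and 3 and 3764 and 3744 FPKM in relapse mice 2 and 4. Ly6c2, a monocyte surface antigen gene, had 844 and 915 FPKM in relapse mice 1 and 3 and 1657 and 1922 FPKM in relapse mice 2 and 4. S100a8, a calcium-binding protein of neutrophils, had the opposite order, with 5611 and 6254 FPKM in relapse mice 1 and 3 and 2487 and 3372 FPKM in relapse mice 2 and 4. The labels give no difference between these mice, and the pattern was seen after the values and was not tested.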
